A study of Mus musculus with 8 samples.

Results

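The 8 genes described here are transcripts of T, natural killer (NK) and B lymphocytes, read in RNA sequencing libraries of macrophages sorted from mouse tumors as a check of what the sort contained. They are Cd2, Cd3e and Cd3g for T cells, Nkg7 and Gzmb for NK and cytotoxic cells, and Cd79a, Cd79b and Igkc for B cells, and all 8 were found by gene name in the deposited table of 35275 genes. Their names were picked with earlier results of this comparison of labels known, so their differences between the labels are given as a description, with no test. There were 4 libraries labelled Atg5 KO (Atg5flox/flox+LysMcre) and 4 labelled Atg5 WT (Atg5flox/flox), so mice of both labels carried the floxed allele and the KO-labelled mice also carried Cre at the Lyz2 (LysM) locus, which acts in myeloid cells. All mice were female C57BL/6J, 6 to 8 weeks old when 100000 cells of MC38, a mouse colon carcinoma line, were placed under the skin of the flank, and tumors were taken after 21 days. The sorted cells were CD11b+ F4/80+ Ly6G- Ly6C-, a gate that contains no antibody against T, NK or B cells, and each library came from its own mouse, numbered 1 to 4 within each label. Values are FPKM, fragments per kilobase of gene length and per 1000000 fragments of the library, and the whole fragments behind them were recovered from the table.

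T cells carry the CD3 chains, among them those encoded by Cd3e and Cd3g, which pass the signal of the T cell receptor into the cell. They also carry CD2, an adhesion molecule shared with other cells, NK cells among them. NK cells and cytotoxic T cells kill by releasing granules, where NKG7 is a membrane protein and granzyme B, encoded by Gzmb, a protease. B cells carry CD79A and CD79B, the signalling chains of the B cell receptor, and Igkc encodes the constant part of the kappa light chain of that receptor and of secreted antibody. Each B cell joins 1 variable segment to the constant part of its light chain and another to that of its heavy chain, so the segments in use tell families of B cells apart.

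Sequences are shown for the constant kappa gene and for the kappa and heavy variable segments with the most fragments in WT mouse 1, since the largest value among the 8 genes rests on that library. They are 300 coding bases each (bases 1 to 300 of 320 for Igkc, 48 to 347 of 347 for Igkv15-103 and 64 to 363 of 363 for Ighv7-1) from GENCODE release M21 on GRCm38 (mm10), 5′ to 3′ on the gene's strand, and capitals mark the codons for tyrosine, tyrosine and cysteine that come just before the junction in a variable segment. The coding parts lie at chr6:70726435-70726754 on the plus strand for Igkc, chr6:68437468-68437925 on the plus strand for Igkv15-103 and chr12:113896408-113896946 on the minus strand for Ighv7-1.
Igkc: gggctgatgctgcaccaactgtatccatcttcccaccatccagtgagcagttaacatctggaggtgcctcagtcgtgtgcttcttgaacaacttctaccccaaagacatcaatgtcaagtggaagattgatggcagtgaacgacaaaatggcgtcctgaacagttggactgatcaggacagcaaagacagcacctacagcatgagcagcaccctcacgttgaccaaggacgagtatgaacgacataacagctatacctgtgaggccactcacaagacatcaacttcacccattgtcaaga
Igkv15-103: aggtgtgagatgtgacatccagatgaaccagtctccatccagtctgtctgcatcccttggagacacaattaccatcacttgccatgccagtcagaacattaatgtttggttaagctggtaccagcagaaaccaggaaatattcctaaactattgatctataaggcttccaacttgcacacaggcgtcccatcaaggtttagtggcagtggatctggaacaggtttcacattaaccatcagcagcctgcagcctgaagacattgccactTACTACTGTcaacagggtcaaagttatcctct
Ighv7-1: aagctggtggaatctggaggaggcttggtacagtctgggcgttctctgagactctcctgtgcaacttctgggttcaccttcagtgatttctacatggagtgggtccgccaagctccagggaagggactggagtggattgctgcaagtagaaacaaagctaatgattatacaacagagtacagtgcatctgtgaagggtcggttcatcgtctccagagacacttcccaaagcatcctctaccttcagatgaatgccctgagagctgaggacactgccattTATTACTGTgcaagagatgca

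Promoters were looked at because some of the 8 genes ranked the libraries alike and others did not. Of the 8 genes, 5 had an entry in the RefSeq promoter table (GRCm38.p6, 250 bases before to 50 after the start). Cd3e (chr9:45009562-45009861, minus strand), which shared its 4 highest libraries with the listed T, NK and B cell genes below, and Gzmb (chr14:56262285-56262584, minus strand), which did not, are shown with motif matches in capitals.
Cd3e: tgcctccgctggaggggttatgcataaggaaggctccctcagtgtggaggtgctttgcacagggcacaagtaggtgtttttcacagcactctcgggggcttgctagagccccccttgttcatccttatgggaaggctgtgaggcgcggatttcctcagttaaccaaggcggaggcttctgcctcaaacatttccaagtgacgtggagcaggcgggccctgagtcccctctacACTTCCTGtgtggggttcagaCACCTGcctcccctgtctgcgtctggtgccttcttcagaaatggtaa
Gzmb: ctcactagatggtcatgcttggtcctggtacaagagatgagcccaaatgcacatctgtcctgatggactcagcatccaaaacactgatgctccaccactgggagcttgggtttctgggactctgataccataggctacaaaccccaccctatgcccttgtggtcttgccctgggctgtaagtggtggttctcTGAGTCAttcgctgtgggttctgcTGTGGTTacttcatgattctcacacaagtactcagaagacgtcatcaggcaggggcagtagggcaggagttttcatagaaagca
On both strands, 6 motifs were searched. They were AP-1 (TGANTCA, in 7.81% of 32817 promoters of this length), RUNX (TGTGGTT, 5.27%), ETS (CAGGAAGT, 3.33%), an E-box (CACCTG, 20.2%), EBF (CCCNNGGG, 13.7%) and the octamer (ATTTGCAT, 1.74%). Cd3e had an ETS match that begins 18 bases before the start and an E-box 3 bases after it. Gzmb had an AP-1 match 58 bases and a RUNX match 34 bases before the start. The Cd79a window held an ETS match and an E-box, the Cd3g window had 2 E-boxes, and the letters of these motifs did not occur in the Nkg7 window. Nkg7, without a match, had the same 4 libraries highest as Cd3e. A match in letters is not evidence of binding, and no link between matches and the ranking of libraries was tested.

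The libraries held 16168331 to 25555195 fragments under the KO label and 14799546 to 21554368 under the WT label. Genes of macrophage identity were high in all of them. Csf1r, the receptor for the macrophage growth factor CSF1, stood at 347.1 to 392.5 FPKM in KO-labelled and 363.8 to 388.7 FPKM in WT libraries, and Emr1, which encodes the F4/80 of the gate, at 98.5 to 136 and 94.6 to 155.9 FPKM. Ly6g had 2 fragments in 1 KO-labelled library and 0 in the other 7. In contrast, Ly6c1 was present, at 1.91 to 49.9 FPKM in KO-labelled and 2.48 to 34.3 FPKM in WT libraries. Ly6c2, also a Ly6C gene, was present too, at 2.09 to 14.9 FPKM in KO-labelled and 2.51 to 6.28 FPKM in WT libraries. Atg5 itself stood at 14.0 ± 1.51 FPKM (SD, n = 4) in the KO-labelled and 4.52 ± 1.49 FPKM (SD, n = 4) in the WT libraries. This check goes against the label, but a whole-gene value cannot show whether floxed exons were lost. Every direction below is by label. Lyz2, the gene at whose locus the KO-labelled mice carry Cre, stood at 3021.8 ± 310.6 FPKM in the KO-labelled and 5249.4 ± 825.5 FPKM in the WT libraries (SD, n = 4 each), with every KO-labelled value below every WT value and a limma adjusted p of 0.985. The Atg5 value covers the whole gene, including exons that are not floxed. The 2 libraries from mice numbered 1 stand apart from the other 6 in Ly6c1 and in some macrophage and fibroblast transcripts. They also held the most fragments under their labels. Their median-of-ratios scaling factors were 1.10 (KO-labelled) and 1.09 (WT), against 0.946 to 1.01 in the rest. The part of depth and scaling was not tested. Ly6c1 was at 49.9 FPKM in KO-labelled mouse 1, 34.3 FPKM in WT mouse 1 and at most 5.44 FPKM elsewhere. Ly6c2 did not share this pattern, with 14.9 FPKM in KO-labelled mouse 1, 6.86 FPKM in KO-labelled mouse 3 and 6.28 FPKM in WT mouse 1. Of 12 macrophage identity genes, 2 had both mouse 1 libraries highest, Emr1 and Mrc1. The share of such genes among all genes with a mean of at least 1 FPKM was not counted. Mrc1 was at 237.9 FPKM in KO-labelled mouse 1, 245 FPKM in WT mouse 1 and at most 168.3 FPKM elsewhere. Over 9 fibroblast markers the summed level was 215.3 FPKM for KO-labelled mouse 1 and 109.2 FPKM for WT mouse 1, and 18.7 to 36.3 FPKM in the rest. Col3a1, a collagen gene, held 149.1 FPKM of it in KO-labelled mouse 1 and 74.1 FPKM in WT mouse 1. Of the 9 markers 4 had both mouse 1 libraries highest, while Col1a1 was at its lowest in WT mouse 1, at 4.37 FPKM. For the 8 genes, ratios of means are given with and without these 2 libraries.

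The lymphocyte genes lay below the macrophage genes in every library, apart from Igkc in WT mouse 1. By mean FPKM over all 8 libraries the order was Igkc at 9.87, Cd2 at 2.28, Cd79b at 1.95, Cd79a at 0.764, Gzmb at 0.676, Cd3g at 0.306, Nkg7 at 0.298 and Cd3e at 0.258. The last 3 differed by far less than their spread over libraries, as did Cd79a and Gzmb, and likewise Cd2 and Cd79b. Between 43 fragments (Nkg7) and 538 fragments (Igkc) were counted over all libraries together. Mertk, the lowest of the 12 identity genes, ranged from 24.8 to 33.0 FPKM, so that among the values of the 8 lymphocyte genes only Igkc in WT mouse 1 lay above it. The highest Cd3e value was 0.517 FPKM (exact 95% Poisson interval 0.296 to 0.840, 16 fragments, in WT mouse 1), and such intervals and the limits that a count of 0 allows cover counting error only.

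**Figure D1:**
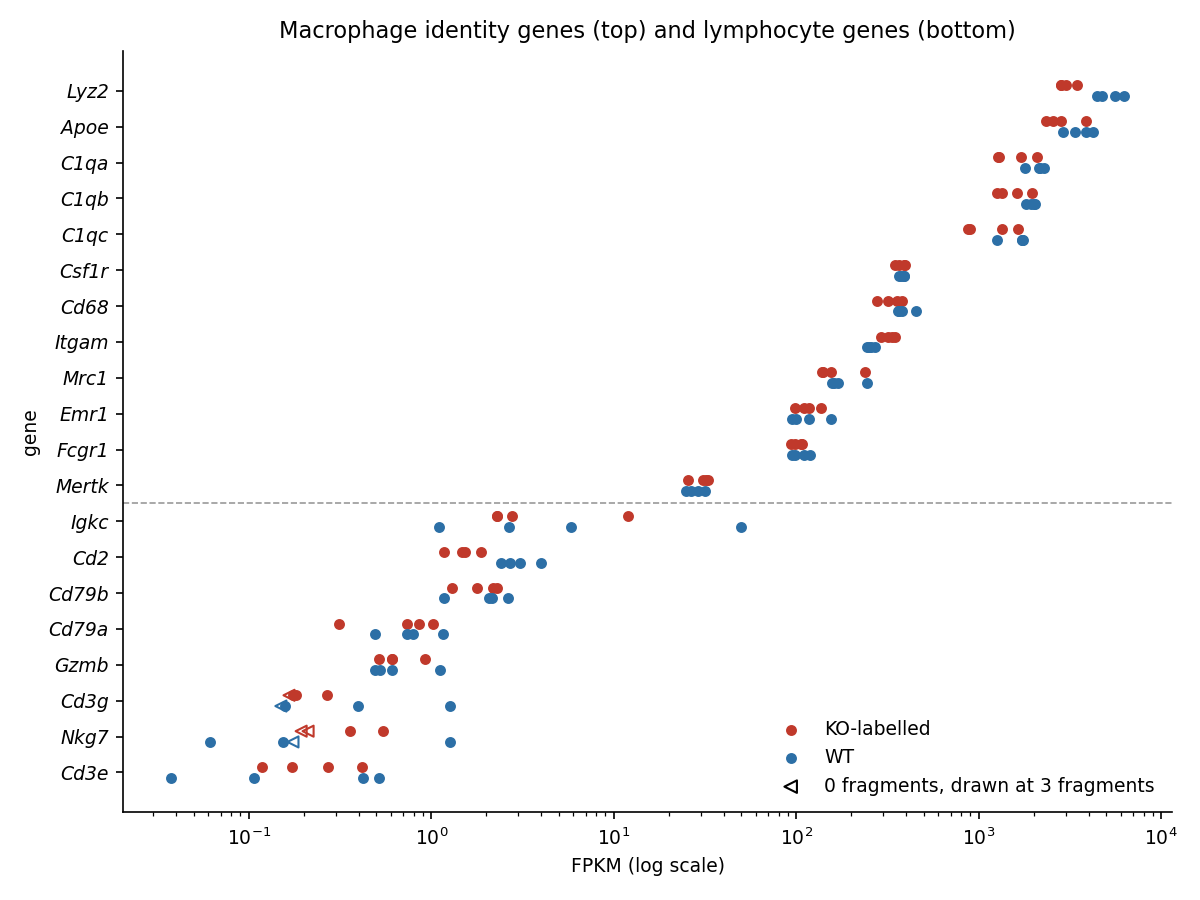
FPKM on a log scale in each of 8 libraries, KO-labelled above WT within each gene, for 12 macrophage identity genes (above the dashed line) and the 8 lymphocyte genes (below it). Open triangles are libraries with 0 fragments, drawn at the value of 3 fragments; Csf1r lies between 347.1 and 392.5 FPKM and Cd3e at no more than 0.517 FPKM.

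Cd2 was the member whose groups did not overlap. Cd2 (ENSMUSG00000027863, chr3:101275899-101287939, minus strand) had 1.53, 1.18, 1.86 and 1.47 FPKM in KO-labelled mice 1 to 4, against 3.06, 2.71, 3.99 and 2.40 FPKM in WT mice 1 to 4. Every KO-labelled library thus stood below every WT library, from 22 to 45 fragments in KO-labelled and 41 to 90 fragments in WT libraries. The means were 1.51 ± 0.28 FPKM in KO-labelled and 3.04 ± 0.69 FPKM in WT libraries (SD, n = 4 each), a ratio of 0.497, and without both mouse 1 libraries the ratio was 0.496. Among all 11019 genes with a mean of at least 1 FPKM, 0.59% had every KO-labelled value below every WT value and 1.15% had the opposite. Cd2 was noticed for this difference, so nothing is read from it. Over all libraries Cd2 had 398 fragments, against 56 for Cd3e and 50 for Cd3g. The part of cells other than T cells in the Cd2 values was not tested.

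The CD3 chains did not show what Cd2 showed. Cd3e (ENSMUSG00000032093, chr9:44998743-45009590, minus strand) had 0.273, 0.172, 0.416 and 0.118 FPKM in KO-labelled mice 1 to 4, against 0.517, 0.0375, 0.107 and 0.423 FPKM in WT mice 1 to 4. The groups overlapped throughout, with means of 0.245 ± 0.131 FPKM in KO-labelled and 0.271 ± 0.235 FPKM in WT libraries (SD, n = 4 each). Cd3g (ENSMUSG00000002033, chr9:44969572-44980431, minus strand), in the same gene cluster, had 0.268, 0.181, 0.175 and 0 FPKM in KO-labelled mice 1 to 4, against 1.27, 0.158, 0 and 0.396 FPKM in WT mice 1 to 4. Its highest value, from 28 fragments in WT mouse 1, stood apart from the other 7 libraries, which had 0 to 7 fragments. A count of 0, taken to allow up to 3 fragments here and below, allows up to 0.166 FPKM in KO-labelled mouse 4 and up to 0.1499 FPKM in WT mouse 3. The ratio of the Cd3g means was 0.342, and 0.643 without both mouse 1 libraries. For Cd3e it was 0.902 with them and 1.24 without them. The third CD3 chain gene of the cluster, Cd3d, had 1 to 9 fragments in every library. In bulk RNA, fewer cells of a type and less RNA per cell cannot be told apart.

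**Figure D2:**
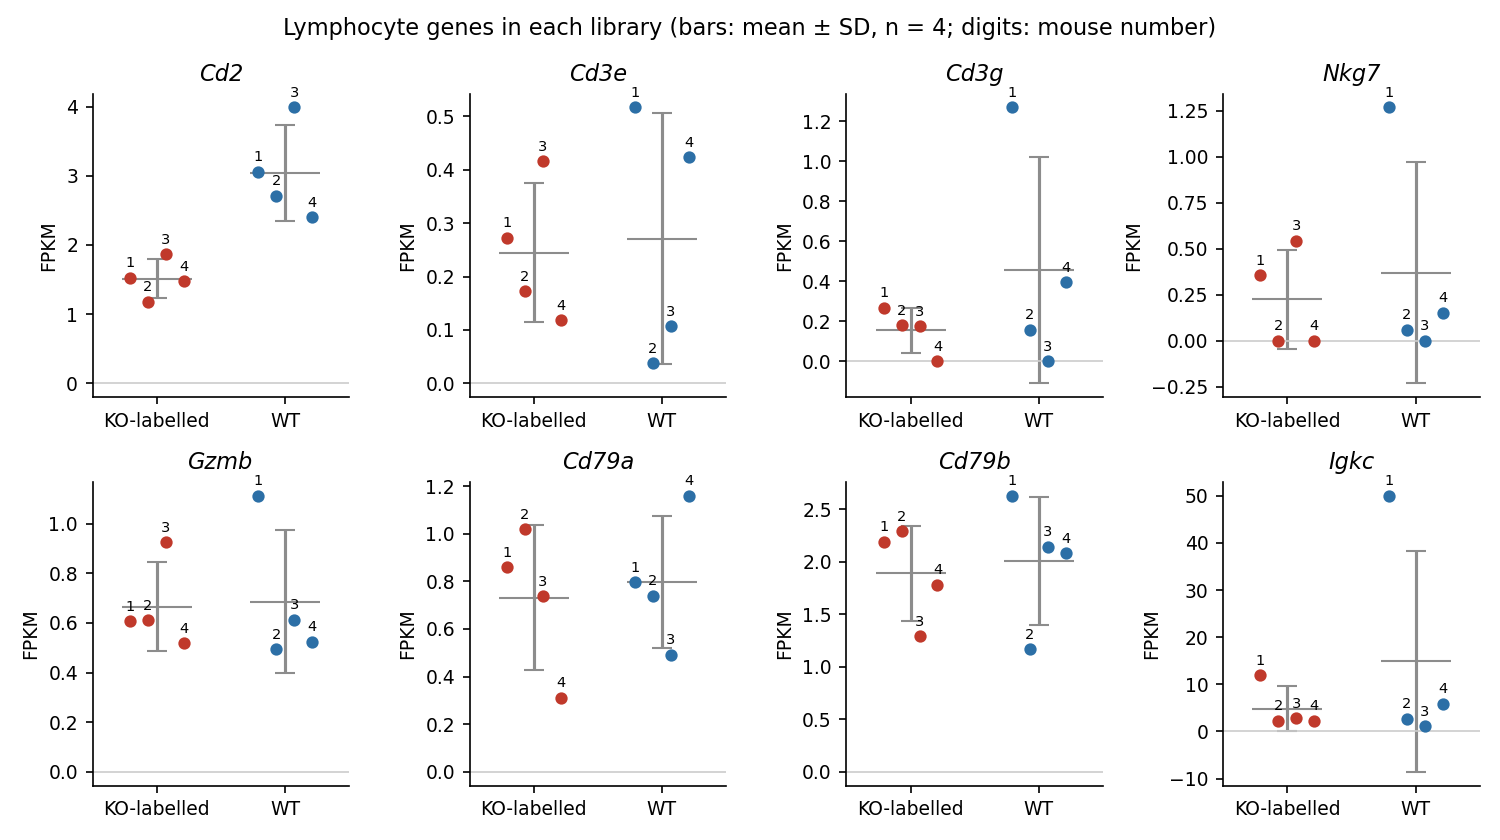
FPKM of the 8 lymphocyte genes in each library, 1 panel a gene with its own linear axis, KO-labelled left of WT; points are libraries with their mouse number, and bars give the mean and SD of 4. For Cd2 the 4 KO-labelled points (1.18 to 1.86) lie below the 4 WT points (2.40 to 3.99), and for the other 7 genes the groups overlap.

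The genes of cytotoxic granules overlapped between the labels as well. Nkg7 (ENSMUSG00000004612, chr7:43437073-43438246, plus strand) had 0.357, 0, 0.544 and 0 FPKM in KO-labelled mice 1 to 4, against 1.27, 0.0614, 0 and 0.154 FPKM in WT mice 1 to 4. KO-labelled mice 1 and 3 had 8 fragments each, against 24 in WT mouse 1. The other 5 libraries held 0 to 2 fragments, and a count of 0 allows up to 0.211 FPKM in KO-labelled mouse 2, 0.194 FPKM in KO-labelled mouse 4 and 0.175 FPKM in WT mouse 3. The ratio of the means was 0.607, and 2.53 without both mouse 1 libraries, so the side on which the higher mean lay depended on them. Gzmb (ENSMUSG00000015437, chr14:56258856-56262260, minus strand) was found in every library, at 0.607, 0.611, 0.926 and 0.519 FPKM in KO-labelled mice 1 to 4, against 1.11, 0.494, 0.613 and 0.524 FPKM in WT mice 1 to 4. Its means were 0.666 ± 0.178 FPKM in KO-labelled and 0.686 ± 0.289 FPKM in WT libraries (SD, n = 4 each), a ratio of 0.971. Without both mouse 1 libraries the ratio was 1.26, so here too the side of the higher mean depended on them. Gzmb is also made by some cells outside the lymphoid lineages, such as plasmacytoid dendritic and mast cells. Siglech, a lectin of plasmacytoid dendritic cells, had 0 to 6 fragments in KO-labelled and 0 to 4 in WT libraries, and the mast cell protease gene Cpa3 had 0 to 9 and 0 to 5, while Tpsab1, a mast cell tryptase gene, had 0 fragments in all 8. Other genes of the same marker lists were present, among them Kit with 180 to 280 fragments in KO-labelled and 247 to 439 in WT libraries, and Irf8 at 57.8 to 108.5 FPKM in KO-labelled and 66.9 to 109.2 FPKM in WT libraries. The part of such cells in the Gzmb values was not tested.

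The genes of the B cell receptor chains spanned a narrower range over the libraries than the antibody gene did. Cd79a (ENSMUSG00000003379, chr7:24897381-24902197, plus strand) had 0.859, 1.02, 0.737 and 0.311 FPKM in KO-labelled mice 1 to 4, against 0.796, 0.739, 0.491 and 1.16 FPKM in WT mice 1 to 4. Cd79b (ENSMUSG00000040592, chr11:106311341-106314762, minus strand) had 2.19, 2.29, 1.29 and 1.78 FPKM in KO-labelled mice 1 to 4, against 2.63, 1.17, 2.14 and 2.08 FPKM in WT mice 1 to 4. Both genes overlapped between the labels, with ratios of the means of 0.919 for Cd79a and 0.942 for Cd79b (0.865 and 0.996 without both mouse 1 libraries), and neither set WT mouse 1 far from the others. Igkc (ENSMUSG00000076609, chr6:70726435-70726757, plus strand, whose sequence is given above) had 11.99, 2.30, 2.77 and 2.28 FPKM in KO-labelled mice 1 to 4, against 49.99, 2.67, 1.11 and 5.86 FPKM in WT mice 1 to 4. KO-labelled mouse 1 held 99 of the 538 Igkc fragments, against 348 for WT mouse 1. The means were 4.84 ± 4.78 FPKM in KO-labelled and 14.9 ± 23.5 FPKM in WT libraries (SD, n = 4 each), with a ratio of 0.324 and, without both mouse 1 libraries, of 0.763.

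The spread between libraries was compared with counting error, as chi-square per degree of freedom of the fragments given each library's depth, where counting error alone gives about 1. It was 2.02 for Gzmb, 2.40 for Cd79a, 3.24 for Cd3e, 3.44 for Cd79b, 8.79 for Cd2, 10.6 for Nkg7, 11.1 for Cd3g and 167 for Igkc. All 8 genes lay above 1 on this measure, with Gzmb lowest and Igkc highest. The measure grows with the number of fragments, so it does not rank the genes by their variation between mice. All 8 genes had a lower mean in KO-labelled than in WT libraries, and 5 of 8 did without both mouse 1 libraries. Of the 26558 genes with any fragment, 49.6% had the lower mean in KO-labelled libraries, and 46.2% without both mouse 1 libraries. WT mouse 1 held the highest value for 6 of the 8 genes, the exceptions being Cd2 (WT mouse 3) and Cd79a (WT mouse 4), whereas over all genes with any fragment it held the highest value for 17.7%.

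Immunoglobulin variable segments were also most abundant in WT mouse 1. Kappa segments (Igkv) had 98, 15, 28 and 12 fragments in KO-labelled mice 1 to 4, against 407, 21, 20 and 48 fragments in WT mice 1 to 4. Heavy segments (Ighv) had 102, 12, 31 and 10 fragments in KO-labelled mice 1 to 4, against 363, 24, 13 and 46 in WT mice 1 to 4. In WT mouse 1 a single segment of each kind held most of these fragments. Igkv15-103 had 232 of the 407 kappa fragments, which is 57.0% (95% Wilson interval 52.2% to 61.7%), and Ighv7-1 had 236 of the 363 heavy fragments, which is 65.0% (60.0% to 69.7%). Outside WT mouse 1, Igkv15-103 had 10 fragments, all in KO-labelled mouse 1, and Ighv7-1 had 1 fragment each in KO-labelled mouse 3 and WT mouse 4. KO-labelled mouse 1, with the next largest totals, had top segments with smaller shares, Igkv14-126 with 12.2% (7.15% to 20.2%) and Ighv1-55 with 17.6% (11.5% to 26.2%). Large shares also arose from few fragments. Ighv1-53 had 8 of the 13 heavy fragments in WT mouse 3, which is 61.5% (35.5% to 82.3%). In KO-labelled mouse 2 the top segments had 40.0% of 15 kappa and 41.7% of 12 heavy fragments. Out of 105 kappa segments in the table, 17 had fragments in KO-labelled mouse 1, against 28 in WT mouse 1. Variable segments resemble each other, so that the assignment of fragments among near-identical segments is uncertain.

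**Figure D3:**
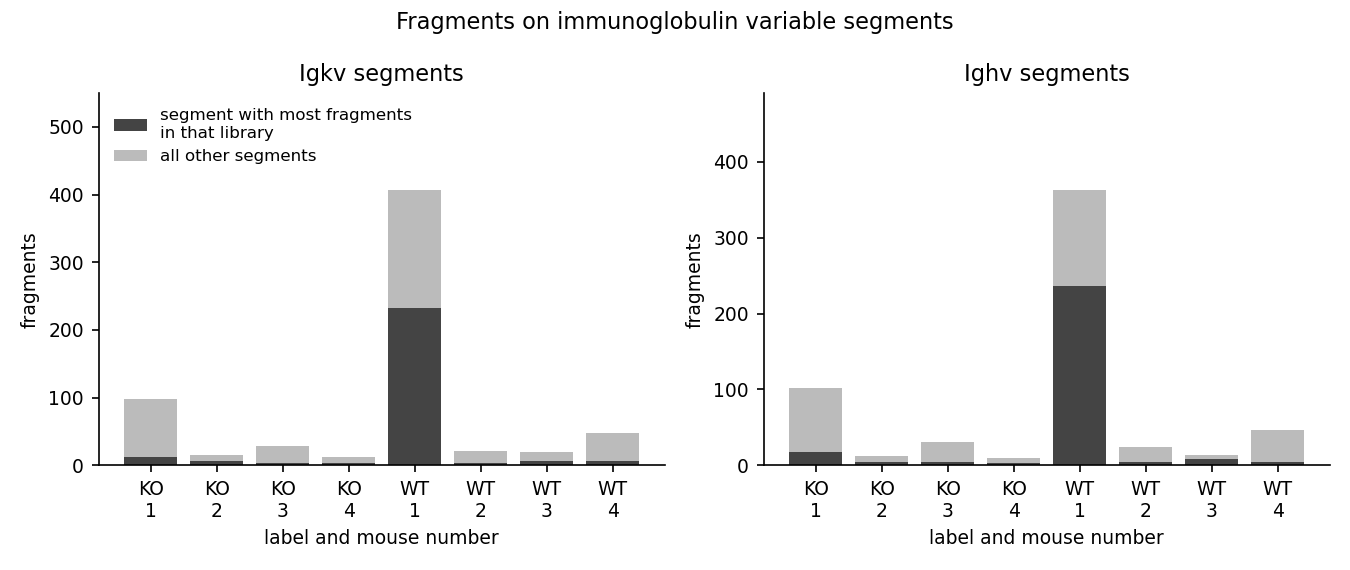
Fragments on kappa (Igkv, left) and heavy (Ighv, right) variable segments in each library, KO-labelled libraries left of WT, with the segment that held most fragments in that library in dark and all others in light grey. The dark part of WT mouse 1 is Igkv15-103 (232 fragments) and Ighv7-1 (236 fragments).

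The IgM constant gene and the joining chain gene had their highest values in the same library. Ighm, the constant part of IgM, had 16.0, 9.77, 8.04 and 6.17 FPKM in KO-labelled mice 1 to 4, against 45.5, 7.34, 10.1 and 11.3 FPKM in WT mice 1 to 4. Igj, the joining chain of secreted IgM and IgA, had 22, 4, 4 and 3 fragments in KO-labelled mice 1 to 4, against 124, 6, 4 and 9 in WT mice 1 to 4. KO-labelled mouse 1 was next for both. The ratio of the means was 0.539 for Ighm and 0.220 for Igj, and 0.834 and 0.578 without both mouse 1 libraries. Of the IgG constant genes that library held 8 fragments for Ighg1, 2 for Ighg2b, 4 for Ighg2c and 20 for Ighg3, and of these 4 genes Ighg3 alone was highest there. Ighg1 was highest in WT mouse 4 with 27 fragments, Ighg2b in KO-labelled mouse 1 with 16 and Ighg2c in WT mouse 2 with 9. Ms4a1, which encodes CD20 on mature B cells, had 9 fragments there and 0 to 4 elsewhere. Over all Igkv segments other than the top one of each library, KO-labelled mouse 1 had 3.37 per 1000000 fragments, against 8.12 for WT mouse 1, which was still the highest.

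The other lymphocyte genes were read from lists of 42 T cell, 23 NK and cytotoxic, and 32 B and plasma cell genes that leave out the 8 members. Of these, 41, 23 and 29 were in the table, and 33, 19 and 21 had a mean under 1 FPKM and were not tested. Cd8a and Ncr1 were among the low ones, whereas Cd4, the co-receptor of helper T cells, passed the filter with a mean of 1.84 FPKM over all libraries. Cd8a, the CD8 chain of cytotoxic T cells, had 0.375, 0.0790, 0.114 and 0.0181 FPKM in KO-labelled mice 1 to 4, against 0.697, 0.0172, 0.0817 and 0.0216 FPKM in WT mice 1 to 4. Ncr1, an activating receptor of NK cells, had 0 or 1 fragment in KO-labelled and 0 to 5 fragments in WT libraries. The genes with a mean above 10 FPKM in the lists, other than Ighm, include ones whose use is not limited to lymphocytes, such as Fyb and Lcp2, adaptors of immune receptor signalling, Cd72, a receptor also of myeloid cells, and Prdm1, a repressor that shapes several blood lineages.

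Summed over the low genes of each list, the T, NK and B cell lists ranked the same 4 libraries highest, and these were divided equally between the labels. For the 33 low T cell genes the sum was 16.7, 8.53, 12.3 and 7.55 FPKM in KO-labelled mice 1 to 4, against 20.4, 5.71, 10.7 and 15.2 FPKM in WT mice 1 to 4. For the 19 low NK and cytotoxic genes it was 6.85, 2.74, 4.25 and 2.71 FPKM in KO-labelled mice 1 to 4, against 7.01, 2.15, 2.67 and 4.86 FPKM in WT mice 1 to 4. For the 21 low B and plasma cell genes it was 5.08, 2.13, 2.70 and 1.60 FPKM in KO-labelled mice 1 to 4, against 7.75, 2.12, 1.37 and 6.00 FPKM in WT mice 1 to 4. Single genes held much of this last sum, Igj 4.13 FPKM in WT mouse 1 and Ighg1 1.87 FPKM in WT mouse 4. Each of the 3 lists was highest in KO-labelled mice 1 and 3 and WT mice 1 and 4, and so were Igkv and Ighv segments per 1000000 fragments. Segments of the T cell receptor, given at the end, shared 3 of these 4 libraries. KO-labelled mouse 2 stood in place of KO-labelled mouse 1 for alpha (Trav) and of KO-labelled mouse 3 for beta (Trbv) segments. The 4 libraries of the lists included the deepest, KO-labelled mouse 1, and the shallowest, WT mouse 4. The part of depth in this order was not tested. Of the 8 members, Cd3e, Nkg7 and Igkc had the same 4 libraries highest, and Cd2, Cd3g, Gzmb, Cd79a and Cd79b did not. Cd3g differed from this order by a narrow margin, with 0.181 FPKM in KO-labelled mouse 2 and 0.175 FPKM in KO-labelled mouse 3. Among single low genes, 4 of the 33 T cell, 4 of the 19 NK and cytotoxic and 1 of the 21 B and plasma cell genes had these 4 libraries highest. Of the 15539 genes above 0 with a mean under 1 FPKM, 4.33% had these 4 libraries highest. This grouping of libraries was noticed in the data and no test was made of it.

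**Figure D4:**
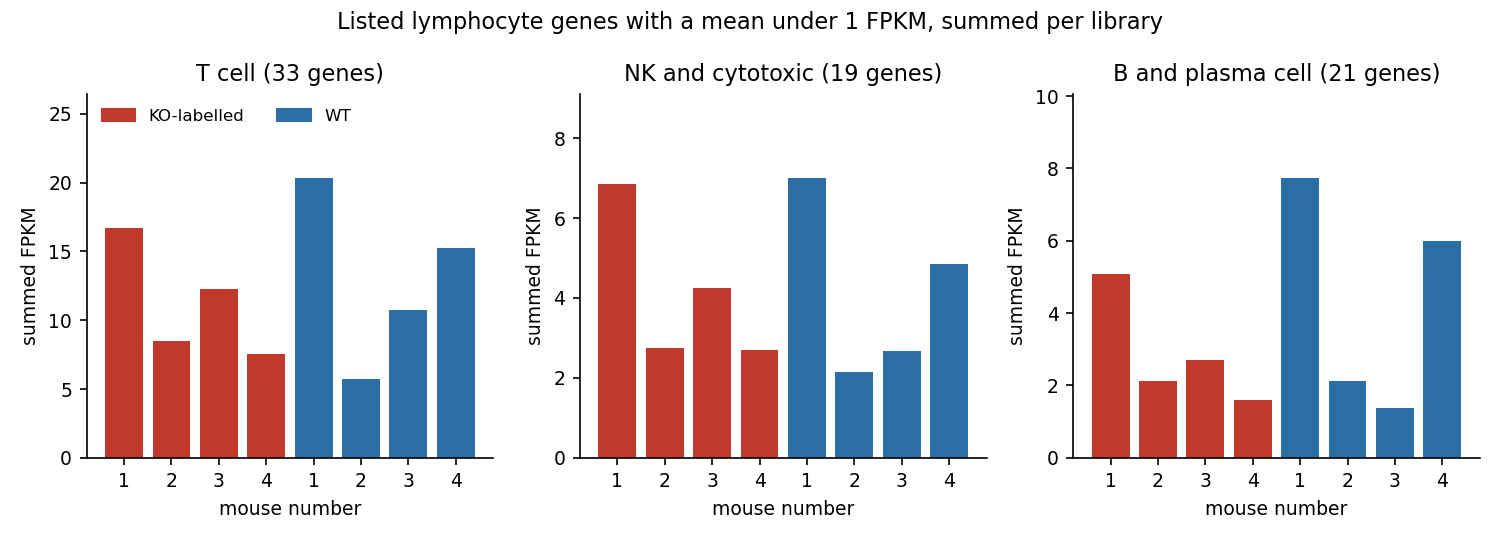
Summed FPKM per library of the listed T cell (33), NK and cytotoxic (19) and B and plasma cell (21) genes with a mean under 1 FPKM, KO-labelled libraries left of WT, numbered by mouse. In each panel the 4 tallest bars are KO-labelled mice 1 and 3 and WT mice 1 and 4.

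Single low genes were also often highest in both mouse 1 libraries. This held for 9 of the 33 low T cell genes, 9 of the 19 low NK and cytotoxic genes and 5 of the 21 low B and plasma cell genes, against 8.15% of all genes above 0 with a mean under 1 FPKM. Tcf7, a transcription factor of naive and memory T cells, had 2.12 FPKM in KO-labelled mouse 1 and 1.80 FPKM in WT mouse 1, and no more than 0.711 FPKM elsewhere. Ctla4, an inhibitory receptor of T cells, had 1.40 FPKM in KO-labelled mouse 1 and 1.58 FPKM in WT mouse 1, and no more than 0.476 FPKM elsewhere. Gzmc, another granzyme gene, had 1.59 FPKM in KO-labelled mouse 1 and 1.34 FPKM in WT mouse 1, and no more than 0.894 FPKM elsewhere. Fibroblast transcripts were high in the same 2 libraries, as given above, and their part in these values was not tested.

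Between the labels, no listed gene passed in the fit across all genes. In limma on log2(FPKM + 1), 0% of 11019 genes passed an adjusted p of 0.05 (Benjamini-Hochberg), and 2.02% had an unadjusted p under 0.05. With the mouse number as a block these shares were 0.00908% and 8.81%, and the list counts that follow were the same. Of the tested list genes, 0 of 8 T cell, 0 of 4 NK and cytotoxic and 0 of 8 B and plasma cell genes passed, also with limma's voom on the recovered fragments. At an unadjusted p under 0.05 there were 0 higher and 1 lower of the T cell genes, 0 and 1 of the NK and cytotoxic genes, and 1 and 4 of the B and plasma cell genes, against 1.2% higher and 0.826% lower over all genes tested. The median difference, KO-labelled minus WT, was -0.0017 for the tested T cell genes, -0.24 for the NK and cytotoxic genes and -0.34 for the B and plasma cell genes, beside 0.03 for all genes tested. Over all genes of each list in the table, low ones included, the medians were -0.03, 0.01 and -0.02, beside 0.00060 for all genes above 0.

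Lag3 had the smallest p value among the tested list genes, and the low genes were not tested. Lag3, an inhibitory receptor, had 2.91, 3.06, 2.30 and 1.70 FPKM in KO-labelled mice 1 to 4, against 5.75, 4.20, 5.36 and 4.19 FPKM in WT mice 1 to 4. In limma the difference, KO-labelled minus WT, came to -0.76 with a standard error of 0.16, at an unadjusted p of 0.000973 and a Benjamini-Hochberg adjusted p of 0.999. Cst7, a cysteine protease inhibitor of cytotoxic and myeloid cells, had 2.83 ± 1.11 FPKM in KO-labelled and 4.49 ± 0.40 FPKM in WT libraries (SD, n = 4 each), and the groups overlapped. Cd22, an inhibitory co-receptor of B cells, had 1.61 ± 0.21 FPKM in KO-labelled and 2.45 ± 0.29 FPKM in WT libraries (SD, n = 4 each), with groups that did not overlap and an adjusted p of 0.999 in limma. Blnk, an adaptor of B cell receptor signalling, had 5.61 ± 0.99 FPKM in KO-labelled and 7.90 ± 1.38 FPKM in WT libraries, and Cd72 had 50.1 ± 3.86 FPKM in KO-labelled and 61.3 ± 4.45 FPKM in WT libraries (SD, n = 4 each). Igha, the constant part of IgA, had 1.05 ± 0.73 FPKM in KO-labelled and 2.45 ± 0.72 FPKM in WT libraries. Prdm1 lay on the other side, with 12.6 ± 1.55 FPKM in KO-labelled and 9.92 ± 0.57 FPKM in WT libraries (SD, n = 4 each). The groups of Lag3, Blnk and Prdm1 did not overlap either, while those of Cd72 and Igha did. Over all genes tested, 0.59% had every KO-labelled value below every WT value and 1.15% had the opposite.

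The remaining genes of the lists that the naming rule took had larger unadjusted p values. Ccl5, a chemokine of T and NK cells also made by macrophages, had 45.7, 32.8, 55.6 and 16.8 FPKM in KO-labelled mice 1 to 4, against 49.5, 37.7, 47.8 and 36.9 FPKM in WT mice 1 to 4. Klrk1, which encodes the receptor NKG2D, had 5.37 ± 1.02 FPKM in KO-labelled and 5.90 ± 1.56 FPKM in WT libraries (SD, n = 4 each), and Klrd1, the CD94 gene, 1.12 ± 0.22 and 1.41 ± 0.38 FPKM. Fyb had 74.5 ± 0.51 FPKM in KO-labelled and 66.3 ± 3.09 FPKM in WT libraries, with groups that did not overlap, and Lcp2 had 41.8 ± 1.56 and 38.8 ± 1.83 FPKM. Il7r, the interleukin 7 receptor, stood at 42.9 ± 11.8 and 41.7 ± 5.15 FPKM, Tnfrsf9, a costimulatory receptor, at 73.2 ± 18.03 and 64.3 ± 8.56 FPKM, and Il2ra, the interleukin 2 receptor alpha chain, at 2.08 ± 0.33 and 2.54 ± 0.55 FPKM. Sdc1, a proteoglycan of plasma cells and epithelia, stood at 23.4 ± 5.22 and 24.9 ± 4.81 FPKM. Each of these genes had an adjusted p of 0.999 in limma, and a p that misses the threshold does not show that the labels are alike.

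**Figure D5:**
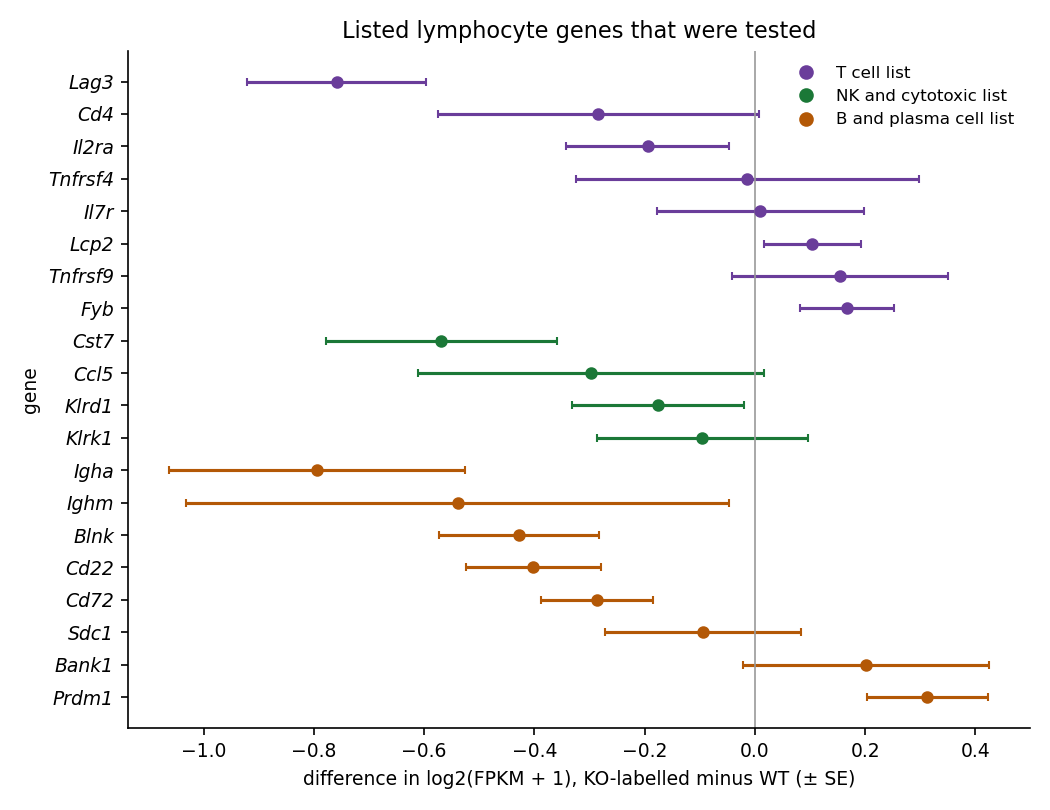
Difference in log2(FPKM + 1), KO-labelled minus WT, with its standard error from limma, for the 20 listed lymphocyte genes that were tested, grouped by list and ordered by size. Lag3 (-0.76) and Igha (-0.79) lie furthest to the left and Prdm1 (0.31) furthest to the right, and none passed after adjustment.

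Outside the 8 members, the genes whose pattern over the 8 libraries was most like each lineage are given by name only. The search left out the 8 members and genes with a mean under 1 FPKM, where most of the listed lymphocyte genes lie. Listed genes with a mean of at least 1 FPKM were searched, and none was among the nearest genes given here. Likeness was the mean absolute distance between z-scores of log2(FPKM + 1), over 10257 named genes with a mean of at least 1 FPKM. For the mean pattern of Cd2, Cd3e and Cd3g the nearest were Plbd1 at 0.266, Akr1b10 at 0.278, Mansc1 at 0.291, Psme1 at 0.295 and Tmem60 at 0.297, where the median gene was at 0.920. For Nkg7 and Gzmb they were Vipas39 at 0.155, Gbp8 at 0.295, Bcl2a1a at 0.300, Pomp at 0.307 and Sdhc at 0.316, and for Cd79a, Cd79b and Igkc they were Hsd17b4 at 0.265, Gpr89 at 0.266, Osgep at 0.279, Loxl3 at 0.289 and Sh3rf1 at 0.292. The members themselves lay at 0.646 (Cd2), 0.469 (Cd3e) and 0.351 (Cd3g) from the mean pattern of their lineage, at 0.184 (Nkg7 and Gzmb), and at 0.637 (Cd79a), 0.495 (Cd79b) and 0.460 (Igkc). Each mean pattern includes the member itself. With 2 members, as for Nkg7 and Gzmb, the distances are equal by construction.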

How the data were processed

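The authors deposited 1 table of FPKM values for 35275 genes, with gene lengths. Per the submitters' processing notes, CASAVA, STAR and mm10 were used. Not given in the sources used here are the counting tool, its use of strand and its handling of reads shared between genes. The sorted cells of each mouse gave total RNA for libraries made with a NEBNext Ultra RNA kit, per the labels' protocols.

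For 100% of values, FPKM times gene length gave whole steps (within 0.01 fragments) of 1 size in each library, and this recovered the fragments per gene. Every pair of libraries differed by more than sampling noise, with a chi-square of at least 8.5 per degree of freedom, so all 8 were kept. Genes with a mean of at least 1 FPKM over all libraries were compared in limma 3.58.1 (R 4.3.3), using log2(FPKM + 1), a trended variance, two-sided p values and Benjamini-Hochberg adjustment over 11019 genes. Fold changes on this scale understate those of low genes. Of the 8 members, 3 passed this filter (Cd2, Cd79b and Igkc) and 5 did not. The steps were tested on simulated data. The members, lists and tests were chosen with earlier results of these data known.

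Deviations of same-numbered libraries from their group means correlated at 0.841, 0.208, 0.458 and 0.471 for mice 1 to 4 over genes, each above 0.1. A model with mouse number as a block was also fitted. Deviations within a group balance out, so a difference shared by the mouse 1 libraries also raises the values for mice 2 to 4. Libraries of unlike number were not compared, so these values cannot show a pairing of mice 2 to 4. The labels describe separate mice and give no pairing. Named genes were the 8 members, from each list the 6 with the highest mean and the 4 with the smallest p, the 5 genes most like each lineage, and the top variable segments. Igj, Cd3d, Cd4, Cd8a, Ncr1, Ms4a1, the IgG genes, Tcf7, Ctla4, Siglech, Irf8, Cpa3, Kit, Tpsab1, Col3a1 and Col1a1 were named after their values were seen. So was Mrc1. Alternatives tried were another pseudocount, no filter, other scalings, voom, the block and leaving out libraries.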

Additional observations from a re-analysis of the deposited data

Results flagged for a closer look

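In 8 of 58 sets of 4 libraries, the highest or lowest library stood apart from its group by a gap that passed Dixon's 95% critical value, and chance flags about 1 in 20. Of the 8, 7 were in mouse 1 libraries. Igkc in KO-labelled mouse 1, at 11.99 FPKM, and in WT mouse 1, at 49.99 FPKM, stood above the other libraries of the same label. WT mouse 1 also stood above the other WT libraries for Nkg7 (1.27 FPKM), Ighm (45.5 FPKM) and Blnk (9.97 FPKM), and per 1000000 fragments for Igkv segments (18.9) and Ighv segments (16.8). Igha in WT mouse 3, at 1.38 FPKM, stood below the other WT libraries.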

How the results depend on the processing

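The count of genes passing across the table was 0, and it was 1, Atg5, with median-of-ratios scaling, with the mouse number as a replicate block, without both mouse 1 libraries and without WT mouse 1. It ranged from 0 to 1 when 1 library was left out. The T cell, NK and cytotoxic, and B and plasma cell lists had 0 genes passing under all 15 alternatives, and the block changed no other call. The difference of Cd2, KO-labelled minus WT, was negative throughout, -0.68 as reported, -0.95 with a pseudocount of 0.1, -0.9993 with voom and -0.80 to -0.57 over the remaining 14 settings, the reported one included. Over those 14, that of Igkc ran from -1.18 to 0.35, of Nkg7 from -0.22 to 0.17, of Gzmb from -0.08 to 0.12, of Cd3e from -0.11 to 0.07, of Cd79a from -0.14 to 0.07 and of Cd79b from -0.19 to 0.06, each on both sides of 0, and of Cd3g from -0.42 to -0.03, against -0.66 with a pseudocount of 0.1. Depth limits Cd3e, Cd3g and Nkg7 most, with 56, 50 and 43 fragments over 8 libraries.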

Other observations

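Segments of the T cell receptor were counted too. Fragments on the alpha variable segments (Trav, 109 in the table) numbered 6, 8, 17 and 8 in KO-labelled mice 1 to 4, against 41, 2, 9 and 29 in WT mice 1 to 4. Those on the beta segments (Trbv, 23 in the table) numbered 7, 3, 1 and 1 in KO-labelled mice 1 to 4, against 11, 1, 1 and 4 in WT mice 1 to 4. No alpha segment led as the immunoglobulin segments of WT mouse 1 did, the top one there being Trav14-3 with 5 of 41 fragments. Among lambda light chain segments, Iglv1 had 8 fragments in KO-labelled mouse 1, against 28 in WT mouse 1 and 12 in WT mouse 4, and 0 in the other 5 libraries.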
